A study of Mus musculus with 18 samples.

Results

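Transcripts of 5 chemokine receptor genes, Cx3cr1, Ccr2, Ccr1, Cxcr4 and Ccrl2, were followed through sorted macrophages of the mouse brain. The members were taken by gene symbol; all 5 are among the 13043 genes of the deposited count table, and all 5 passed the filter on low counts that left 10597 genes for testing. Wild-type C57BL/6 recipients had been lethally irradiated and given bone marrow that carried Ms4a3-Cre, R26-TdTomato and Cx3cr1-gfp, and the cells were taken 32 weeks later. Ms4a3-Cre switches on TdTomato in the granulocyte-monocyte lineage. Cells with GFP and TdTomato were labelled monocyte-derived, those with GFP but no TdTomato HSC-derived (from donor haematopoietic stem cells), and those without either colour host. The groups were monocyte-derived leptomeningeal macrophages (4 libraries), HSC-derived leptomeningeal macrophages (2), monocyte-derived microglia (4), HSC-derived microglia (4) and host microglia (4), and all of them came from irradiated, transplanted mice and from cell preparations that held actinomycin D, a blocker of transcription. GFP is driven by the Cx3cr1 locus, so the donor gates rested on a reporter of one of the 5 genes, and a donor cell without reporter was not separated from the host cells. The labels leave the zygosity of the gfp allele unstated, and the counts do not tell which Cx3cr1 allele a transcript came from.

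Chemokine receptors are seven-transmembrane proteins that couple mainly to inhibitory G proteins and steer leukocytes along gradients of small secreted chemokines. Cx3cr1 binds fractalkine (Cx3cl1), which neurons make, and in the brain it is best known as a receptor of microglia. Ccr2 binds Ccl2, Ccl7 and Ccl12 and is needed for inflammatory monocytes to leave the marrow. Ccr1 binds Ccl3, Ccl5, Ccl6 and Ccl9. Cxcr4 binds Cxcl12 and holds stem cells and immature leukocytes in the marrow. Ccrl2 is an atypical member that binds chemerin (Rarres2) and presents it to Cmklr1 without signalling itself.

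In the GENCODE annotation of GRCm38.p6, Cx3cr1 lies at chr9:120048683-120068296 on the minus strand, Ccr2 at chr9:124101918-124109140 on the plus strand, Ccr1 at chr9:123962126-123968692 on the minus strand, Ccrl2 at chr9:111054834-111057518 on the minus strand and Cxcr4 at chr1:128588199-128592299 on the minus strand. Ccr1 and Ccr2 are neighbours in the chemokine receptor cluster of chromosome 9, 133 kb apart, and Cx3cr1 lies 3894 kb from Ccr1. RefSeq places the long non-coding RNA gene Gm33858 inside Cx3cr1 on the opposite strand; it has its own counts, and the sources used here do not say whether the counting used the strand. The 250 bases before the transcription start of the 4 genes that differed between donor-derived and host microglia are shown 5′ to 3′ on the gene's own strand, from RefSeq (GRCm38.p6), because 3 of these genes were higher and 1 was lower in the same donor cells. Cx3cr1 is the one that was lower (chr9:120068297-120068546).
Cx3cr1: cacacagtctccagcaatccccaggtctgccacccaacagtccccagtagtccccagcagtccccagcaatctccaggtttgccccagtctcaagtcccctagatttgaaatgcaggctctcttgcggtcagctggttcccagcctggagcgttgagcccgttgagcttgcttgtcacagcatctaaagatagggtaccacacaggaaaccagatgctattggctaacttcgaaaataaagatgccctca
Ccr2 (chr9:124101933-124102182), Ccr1 (chr9:123968693-123968942) and Cxcr4 (chr1:128592300-128592549) were higher. Capitals mark GAGGAA, a purine-rich core bound by the myeloid factor PU.1, and TATAAA, the TATA box, on either strand.
Ccr2: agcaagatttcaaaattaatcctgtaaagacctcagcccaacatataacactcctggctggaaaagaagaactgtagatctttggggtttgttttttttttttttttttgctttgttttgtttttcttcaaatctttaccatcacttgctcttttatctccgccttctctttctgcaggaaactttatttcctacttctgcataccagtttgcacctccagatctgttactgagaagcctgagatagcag
Ccr1: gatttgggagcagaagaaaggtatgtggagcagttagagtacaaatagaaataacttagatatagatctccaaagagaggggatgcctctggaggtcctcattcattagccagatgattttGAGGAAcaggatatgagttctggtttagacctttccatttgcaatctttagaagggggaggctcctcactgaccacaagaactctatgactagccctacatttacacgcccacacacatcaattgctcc
Cxcr4: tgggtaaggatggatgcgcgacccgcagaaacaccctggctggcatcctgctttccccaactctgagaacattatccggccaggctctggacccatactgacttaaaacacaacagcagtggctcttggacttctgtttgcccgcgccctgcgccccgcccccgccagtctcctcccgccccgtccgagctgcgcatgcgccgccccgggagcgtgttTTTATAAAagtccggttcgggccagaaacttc
GAGGAA occurred in Ccr1 alone of the 4, starting 129 bases before the transcription start, and 23.3% of 32851 mouse promoter windows of this length hold it on one strand or the other. TATAAA occurred in Cxcr4 alone of the 4, once on each strand in overlapping positions 32 and 30 bases before the start, against 12.4% of all windows. Neither CACGTG (the E-box, 6.02% of all windows) nor a pair of GAAA with 2 bases between them (as in interferon-stimulated elements, 2.98%) occurred in any of the 4. The windows differed in composition, with 53.6% G and C in Cx3cr1, 37.2% in Ccr2, 43.6% in Ccr1 and 61.2% in Cxcr4. The RefSeq start of Ccr2 lies downstream of the GENCODE start, so its window falls inside the gene span given above. A match describes these letters and is no evidence of binding.

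RNA was counted as unique molecular identifiers (UMIs) by bulk MARS-seq, which reads the 3' ends of transcripts. Total counts ran from 154727 to 2440234 per library, and 3 counts in a library equalled 1.05 to 23.1 CPM (TMM-scaled CPM, each gene's share of its library's counts). The 3 shallowest libraries, with 154727 to 317872 counts, were all HSC-derived: leptomeningeal replicate 2 and microglia replicates 3 and 4. All 9 microglia markers of the list used (Csf1r, Fcrls and P2ry12 among them) were detected in all 5 groups, with summed levels of 5890 to 7160 CPM in monocyte-derived leptomeningeal macrophages, 5300 to 6140 in HSC-derived leptomeningeal macrophages, 13400 to 14200 in monocyte-derived microglia, 12700 to 13700 in HSC-derived microglia and 20800 to 22900 in host microglia. The 10 border macrophage markers, such as Mrc1 and Ms4a7, summed to 8180 to 9600, 10300 to 15100, 4300 to 4580, 4160 to 4810 and 833 to 995 CPM in the same order of groups, so the labelled donor-derived microglia carried both sets. In sorted bulk cells, fewer cells of a type and less RNA per cell cannot be told apart.

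Donor-derived microglia of both origins had lower Cx3cr1 and higher Ccr2, Ccr1 and Cxcr4 than host microglia. Cxcr4 differed most, at 44.3-fold in monocyte-derived and 38.6-fold in HSC-derived microglia, and Cx3cr1 was 2.25-fold and 2.76-fold lower. By edgeR's quasi-likelihood test at an adjusted p under 0.05 (Benjamini-Hochberg over the 10597 genes), 3 members were higher, 1 was lower and 1 (Ccrl2) was not called in monocyte-derived against host microglia, where 30.2% of all tested genes were called. The counts were the same, 3 higher and 1 lower of 5, in HSC-derived against host microglia, where 29.4% of all genes were called. Both comparisons share the host libraries. Markers of the choroid plexus epithelium, 5 genes led by Ttr, summed to 6.31 to 161 CPM in monocyte-derived microglia, 13.7 to 482 CPM in HSC-derived microglia and 2080 to 3520 CPM in host microglia; their part in the comparisons with the host was not tested. Between the donor-derived microglia, 1 of 5 was called, Ccr2, which was lower in the monocyte-derived cells, and 1.89% of all genes were called.

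In the leptomeninges none of the 5 differed between monocyte-derived and HSC-derived macrophages by the edgeR test, where 0.302% of all genes were called, and none was called by DESeq2. Without adjustment, edgeR's test passed 0.05 for 2 of 5, Cx3cr1 and Cxcr4, whose means were higher in the monocyte-derived cells. Monocyte-derived leptomeningeal macrophages had higher Ccr2 and Ccrl2 and lower Cx3cr1 and Cxcr4 than monocyte-derived microglia, 4 of 5 called against 35.3% of all genes. HSC-derived leptomeningeal macrophages had higher Ccr2 and lower Cx3cr1 and Cxcr4 than HSC-derived microglia, 3 of 5 called against 9.72% of all genes. The difference between the compartments depended on origin for 1 of 5, Ccr2, against 0.0566% of all genes. Nothing in the labels ties replicates to different animals, and all p-values therefore refer to the spread among these libraries alone, which may be technical.

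**Figure D1:**
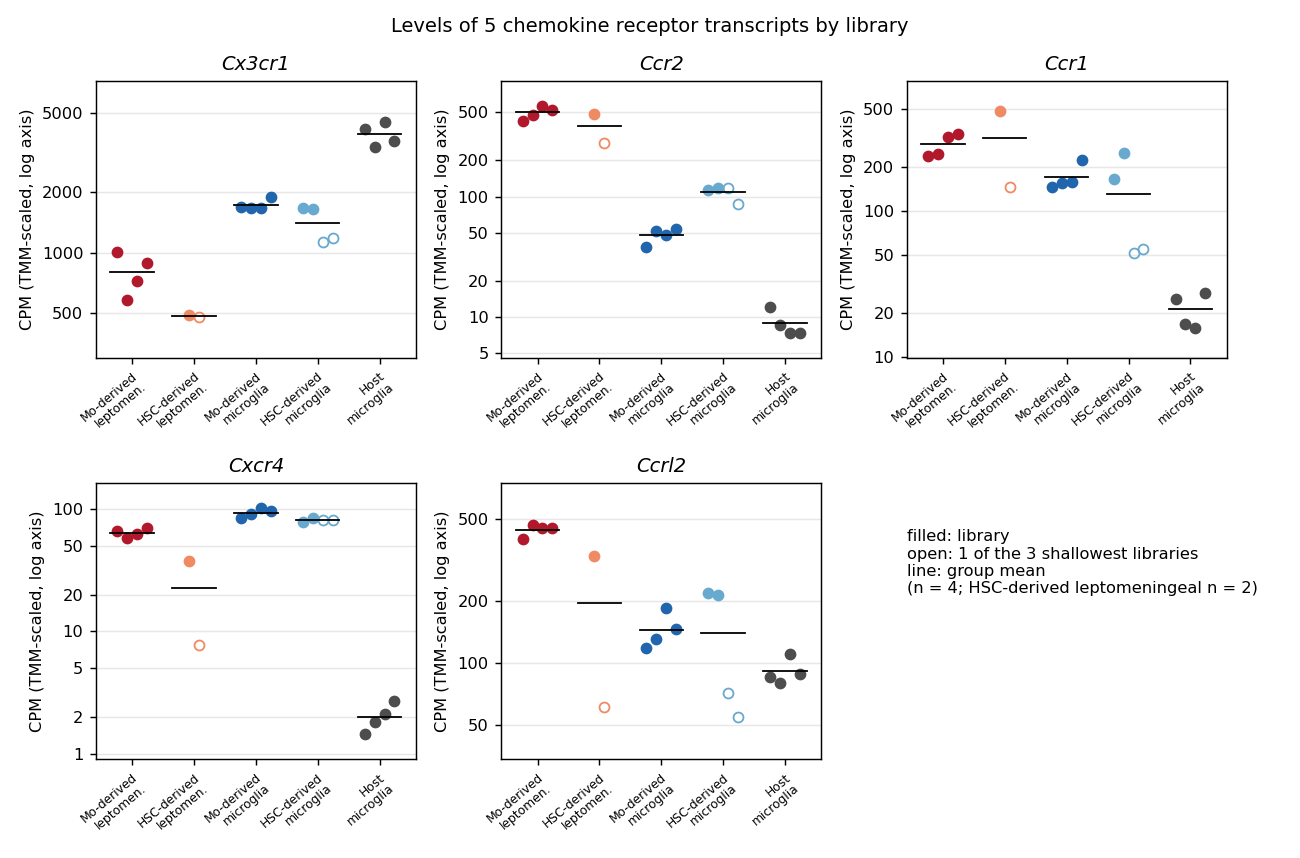
Level of each receptor transcript in every library, in CPM on log axes that do not start at 0, by group; the line is the group mean and open circles are the 3 shallowest libraries. Cx3cr1 is highest in host microglia, Ccr2 and Ccrl2 in monocyte-derived leptomeningeal macrophages, and Cxcr4 lies at 77.9 to 103 CPM in donor-derived microglia and at 1.43 to 2.68 CPM in host microglia.

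Cx3cr1, the fractalkine receptor, was measured at 1008, 582, 719 and 888 CPM in monocyte-derived leptomeningeal macrophages and at 486 and 478 CPM in HSC-derived leptomeningeal macrophages. It was at 1691, 1678, 1668 and 1895 CPM in monocyte-derived microglia, at 1673, 1648, 1127 and 1178 CPM in HSC-derived microglia and at 4126, 3375, 4502 and 3615 CPM in host microglia. Every host library lay above every donor-derived library, and every microglia library lay above every leptomeningeal one. The group means ± SD were 799 ± 187 CPM (n = 4), 482 ± 6.06 (n = 2), 1733 ± 108 (n = 4), 1407 ± 294 (n = 4) and 3904 ± 507 CPM (n = 4) in that order of groups. The level fell in monocyte-derived against host microglia (log2 fold change -1.17 ± 0.18 SE, edgeR adjusted p = 2.97e-06) and in HSC-derived against host microglia (-1.47 ± 0.182, adjusted p = 8.32e-08). In both origins the donor cells carry a gfp allele of this gene, and the part of that allele in the difference from the host was not tested. Within cells that all carry it, the level was lower in leptomeningeal macrophages than in microglia, by 1.12 ± 0.18 on the log2 scale for monocyte-derived cells (edgeR log2 fold change -1.12, adjusted p = 7.46e-06) and with a log2 fold change of -1.55 ± 0.247 for HSC-derived cells (adjusted p = 3.21e-05). Monocyte-derived and HSC-derived microglia, neighbours in the order of levels, were not told apart (0.29, 95% interval -0.07 to 0.66, edgeR adjusted p = 0.445). The next step down, monocyte-derived leptomeningeal macrophages against HSC-derived microglia, was called (-0.82, edgeR adjusted p = 0.00102; 19.1% of all genes were called in this comparison), and the last, between the leptomeningeal groups, was not (0.73, 95% interval 0.24 to 1.21, edgeR adjusted p = 0.233).

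Ccr2, the receptor that carries monocytes out of the marrow, was at 427, 474, 568 and 526 CPM in monocyte-derived leptomeningeal macrophages and at 486 and 277 CPM in HSC-derived leptomeningeal macrophages. It was at 38.0, 52.1, 48.3 and 53.5 CPM in monocyte-derived microglia, at 113, 118, 118 and 86.1 CPM in HSC-derived microglia and at 12.2, 8.64, 7.37 and 7.37 CPM in host microglia. The 3 microglia groups did not overlap each other, and both leptomeningeal groups lay above all of them. Mean levels ± SD were 499 ± 61.2 CPM (n = 4), 382 ± 148 (n = 2), 48.0 ± 6.99 (n = 4), 109 ± 15.3 (n = 4) and 8.89 ± 2.27 CPM (n = 4) in that order of groups. Relative to host microglia, Ccr2 was 5.45-fold higher in monocyte-derived microglia (log2 fold change 2.45 ± 0.216, edgeR adjusted p = 2.67e-11) and 12.6-fold higher in HSC-derived microglia (3.66 ± 0.223, adjusted p = 2.42e-15). Set against each other, monocyte-derived microglia had 2.31-fold less Ccr2 than HSC-derived microglia (-1.21 ± 0.189, edgeR adjusted p = 0.000517), and leaving out any 1 library kept this call, with values between -1.27 and -1.10. An exact two-sided permutation test of log2 CPM gave p = 0.0286 for these groups, the smallest that 4 against 4 libraries allow. Summed monocyte markers were at 31.1 to 68.6 CPM in monocyte-derived microglia and at 5.12 to 39.1 CPM in HSC-derived microglia, where Chil3, Fn1 and Ace had no count. Dendritic cell markers summed to 72.8 to 100.0 and 76.9 to 170.0 CPM in these 2 groups. Of these markers 6 were tested and 0 were called. Their median log2 fold change was -0.98, lower in the monocyte-derived cells as Ccr2 was, against 0.02 over all tested genes. The part of monocytes and dendritic cells in the difference was not tested.

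In the leptomeninges Ccr2 was 10.5-fold higher than in microglia for monocyte-derived cells (log2 fold change 3.39 ± 0.167, edgeR adjusted p = 3.25e-17) and 3.66-fold higher for HSC-derived cells (1.87 ± 0.209, adjusted p = 5.94e-08). The difference of these log2 changes was 1.51 ± 0.272 (95% interval 0.96 to 2.06, edgeR adjusted p = 0.0163). This call rested on single libraries: the adjusted p was 0.104 without monocyte-derived microglia replicate 1, 0.0654 without monocyte-derived leptomeningeal replicate 3 and 0.17 without HSC-derived leptomeningeal replicate 2, with differences of 1.41, 1.44 and 1.22. Monocyte-derived and HSC-derived leptomeningeal macrophages were not told apart (0.30, 95% interval -0.09 to 0.70, edgeR adjusted p = 0.59). In the leptomeninges monocyte markers summed to 363 to 588 CPM in monocyte-derived macrophages and 123 to 139 CPM in HSC-derived macrophages, above every microglia library. Ly6c2, a surface antigen of inflammatory monocytes, was at 138 ± 32.8 CPM (n = 4) and 39.0 ± 0.704 CPM (n = 2) there, against 16.9 ± 4.45 CPM in monocyte-derived microglia and 7.38 ± 4.71 CPM in HSC-derived microglia (n = 4 each). The part of monocytes in the leptomeningeal Ccr2 level was not tested.

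Set against Cx3cr1 in the same library, where no scaling between libraries enters, Ccr2 separated all groups except the leptomeningeal pair. Cx3cr1 itself was lower in donor-derived than in host microglia, and lower in leptomeningeal macrophages than in microglia. Both differences enter the ratio and widen the gaps given by Ccr2 alone. There were 42.4, 81.5, 79.1 and 59.2 Ccr2 UMIs per 100 Cx3cr1 UMIs in monocyte-derived leptomeningeal macrophages, and 100.0 and 58.1 in HSC-derived leptomeningeal macrophages. In microglia the ratio was 2.25, 3.11, 2.9 and 2.82 for monocyte-derived cells, 6.77, 7.17, 10.5 and 7.31 for HSC-derived cells, and 0.295, 0.256, 0.164 and 0.204 for host cells. In HSC-derived leptomeningeal replicate 1, Cx3cr1 and Ccr2 each had 283 counts. The 3 microglia groups did not overlap in this ratio.

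**Figure D2:**
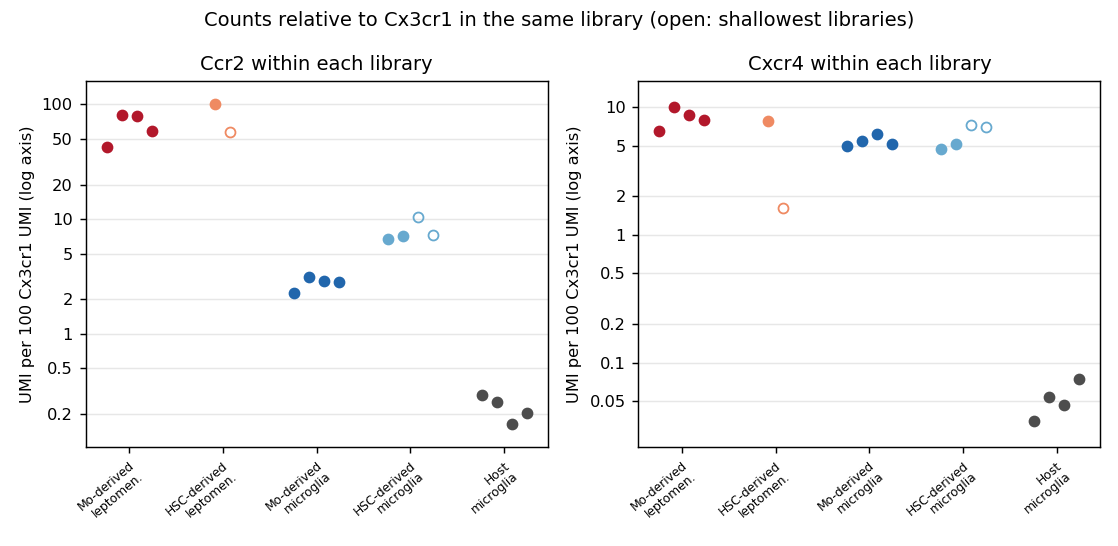
UMI counts of Ccr2 (left) and Cxcr4 (right) per 100 Cx3cr1 UMIs of the same library, on log axes, 1 point per library, with the 3 shallowest libraries open. For Ccr2 the host libraries lie at 0.164 to 0.295, monocyte-derived microglia at 2.25 to 3.11 and HSC-derived microglia at 6.77 to 10.5. Cx3cr1 itself differs between groups.

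Ccr1, which answers Ccl3, Ccl5, Ccl6 and Ccl9, was at 238, 246, 323 and 339 CPM in monocyte-derived leptomeningeal macrophages and at 486 and 146 CPM in HSC-derived leptomeningeal macrophages. It was at 145, 156, 158 and 223 CPM in monocyte-derived microglia, at 166, 250.1, 51.2 and 54.8 CPM in HSC-derived microglia and at 25.1, 16.8, 15.8 and 27.5 CPM in host microglia. All donor-derived libraries lay above all host libraries, and the HSC-derived groups were spread widely, with their shallowest libraries lowest. Means ± SD were 286 ± 52.0 CPM (n = 4), 316 ± 240.3 (n = 2), 171 ± 35.3 (n = 4), 131 ± 95.9 (n = 4) and 21.3 ± 5.84 CPM (n = 4) in that order of groups. Against host microglia, Ccr1 was 8.24-fold higher in monocyte-derived microglia (log2 fold change 3.04 ± 0.427, edgeR adjusted p = 7.04e-05) and 7.26-fold higher in HSC-derived microglia (2.86 ± 0.457, adjusted p = 0.000274). Monocyte-derived against HSC-derived microglia gave 0.18 (95% interval -0.67 to 1.03, edgeR adjusted p = 0.885). HSC-derived microglia replicates 3 and 4 held 10 and 14 Ccr1 counts where replicates 1 and 2 held 117 and 182, and the mean of the deeper pair was 208 CPM. Between the compartments Ccr1 was not called in monocyte-derived cells (leptomeningeal over microglia 0.75, 95% interval -0.01 to 1.52, edgeR adjusted p = 0.121), although those libraries did not overlap. It became a call, higher in the leptomeninges, without the 3 shallowest libraries (0.75, edgeR adjusted p = 0.00114). In HSC-derived cells the value was 1.25 with all libraries (edgeR adjusted p = 0.136). Without those 3 it was 1.23, in a fit that left 1 leptomeningeal library (486 CPM) and 2 microglia libraries. The leptomeningeal groups did not differ in Ccr1 by this test (-0.31, 95% interval -1.31 to 0.68, adjusted p = 0.849).

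Cxcr4, the Cxcl12 receptor, was at 66.1, 58.2, 62.5 and 70 CPM in monocyte-derived leptomeningeal macrophages and at 37.8 and 7.70 CPM in HSC-derived leptomeningeal macrophages. It was at 84.2, 91.9, 103 and 96.6 CPM in monocyte-derived microglia, at 77.9, 85.2, 82.0 and 82.2 CPM in HSC-derived microglia and at 1.43, 1.82, 2.11 and 2.68 CPM in host microglia. Host microglia held 2 to 6 Cxcr4 counts per library, and every donor-derived library lay above them. The lowest donor-derived value, 7.70 CPM, rested on 1 count, with an exact Poisson 95% interval of 0.195 to 42.9 CPM that covers counting error only. Means ± SD were 64.2 ± 5.03 CPM (n = 4), 22.8 ± 21.3 (n = 2), 93.9 ± 7.94 (n = 4), 81.8 ± 2.99 (n = 4) and 2.01 ± 0.525 CPM (n = 4) in that order of groups. The log2 fold change was 5.47 ± 0.232 in monocyte-derived against host microglia (edgeR adjusted p = 9.01e-20), the 46th highest of all 10597 tested genes, and 5.27 ± 0.264 in HSC-derived against host microglia (adjusted p = 1.06e-17), the 86th highest. Monocyte-derived and HSC-derived microglia were not told apart (0.20, 95% interval -0.14 to 0.54, edgeR adjusted p = 0.611). T and NK cells also express Cxcr4; their 14 markers summed to 153 to 194 CPM in monocyte-derived microglia, 15.4 to 229 CPM in HSC-derived microglia and 43.7 to 67.6 CPM in host microglia. In the 4 HSC-derived microglia libraries these sums were 126, 229, 15.4 and 74.4 CPM. The 15.4 CPM of replicate 3 is the level of 3 counts in that library. Cxcr4 was at 77.9, 85.2, 82.0 and 82.2 CPM in the same libraries (55, 62, 16 and 21 counts). The part of T and NK cells in the Cxcr4 level was not tested.

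Unlike Ccr2, Cxcr4 was lower in leptomeningeal macrophages than in microglia of the same origin. The log2 fold change was -0.54 ± 0.145 for monocyte-derived cells (edgeR adjusted p = 0.00351), 1.45-fold lower with no overlap between the libraries. It was -1.38 ± 0.304 for HSC-derived cells (adjusted p = 0.00194), where the leptomeningeal libraries held 22 and 1 counts, and this call was lost when all libraries were thinned to the shallowest total (-0.86, adjusted p = 0.359) or when HSC-derived cells were fitted without the other groups (-1.48, adjusted p = 0.108). Per 100 Cx3cr1 UMIs, Cxcr4 had 6.55, 10, 8.7 and 7.88 UMIs in monocyte-derived leptomeningeal macrophages, against 4.98, 5.47, 6.17 and 5.1 in monocyte-derived microglia, so relative to Cx3cr1 every leptomeningeal library lay above every microglia library of this origin. Between these groups Cx3cr1 was lower in the leptomeninges by more than Cxcr4 was (log2 fold changes -1.12 and -0.54), which turns the ratio round. In HSC-derived cells the ratios overlapped, at 7.77 and 1.61 in leptomeningeal macrophages, against 4.66, 5.17, 7.27 and 6.98 in microglia. In host microglia the ratio was 0.0347 to 0.0741. The lowest group of the donor-derived cells, HSC-derived leptomeningeal macrophages, lay above host microglia (3.89 ± 0.441, edgeR adjusted p = 8.65e-09; 33.6% of all genes were called in this comparison), but without leptomeningeal replicate 1 it was not called (1.79, adjusted p = 0.481). The other neighbours in the order of levels, HSC-derived microglia over monocyte-derived leptomeningeal macrophages (leptomeningeal minus microglia -0.34, edgeR adjusted p = 0.171) and monocyte-derived over HSC-derived leptomeningeal macrophages (1.04, adjusted p = 0.137), were not told apart.

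Ccrl2, the non-signalling chemerin receptor, was at 401, 468, 450.2 and 451 CPM in monocyte-derived leptomeningeal macrophages and at 330 and 61.6 CPM in HSC-derived leptomeningeal macrophages. It was at 119, 132, 184 and 146 CPM in monocyte-derived microglia, at 218, 214, 71.7 and 54.8 CPM in HSC-derived microglia and at 85.9, 80.0, 111 and 89.1 CPM in host microglia. Monocyte-derived leptomeningeal macrophages lay above every other library, monocyte-derived microglia lay just above host microglia, and the HSC-derived groups split by depth on both sides of the host values. Means ± SD were 443 ± 28.7 CPM (n = 4), 196 ± 189.6 (n = 2), 145 ± 28.4 (n = 4), 139.8 ± 88.6 (n = 4) and 91.5 ± 13.5 CPM (n = 4) in that order of groups. Leptomeningeal against microglial monocyte-derived cells gave a log2 fold change of 1.61 ± 0.338, 3.05-fold higher (edgeR adjusted p = 0.00178), and the same contrast in HSC-derived cells gave 0.58 ± 0.476 (adjusted p = 0.538). Against host microglia, monocyte-derived microglia gave 0.66 (95% interval -0.08 to 1.40, edgeR adjusted p = 0.179) and HSC-derived microglia gave 0.78 (-0.02 to 1.58, adjusted p = 0.14). Both became calls without the 3 shallowest libraries, at 0.67 (adjusted p = 3.74e-05) and 1.23 (adjusted p = 5.38e-08), and the first also when monocyte-derived and host microglia were fitted alone (0.68, adjusted p = 3.9e-05). HSC-derived microglia replicates 3 and 4 held 14 Ccrl2 counts each, where replicates 1 and 2 held 154 and 156. Monocyte-derived and HSC-derived cells were not told apart in microglia (-0.12, 95% interval -0.91 to 0.67, edgeR adjusted p = 0.928) or in the leptomeninges (0.91, -0.08 to 1.90, adjusted p = 0.5), nor were HSC-derived leptomeningeal macrophages and monocyte-derived microglia (0.70, adjusted p = 0.307; 21.3% of all genes were called). Neutrophils make much Ccrl2 when activated, and their 9 markers in the table summed to 1310 to 2940 CPM in monocyte-derived leptomeningeal macrophages, against 120.0 to 189 CPM in monocyte-derived microglia; S100a9 was at 883 ± 299 and 15.9 ± 13.7 CPM (n = 4 each). The part of neutrophils in the leptomeningeal Ccrl2 level was not tested.

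**Figure D3:**
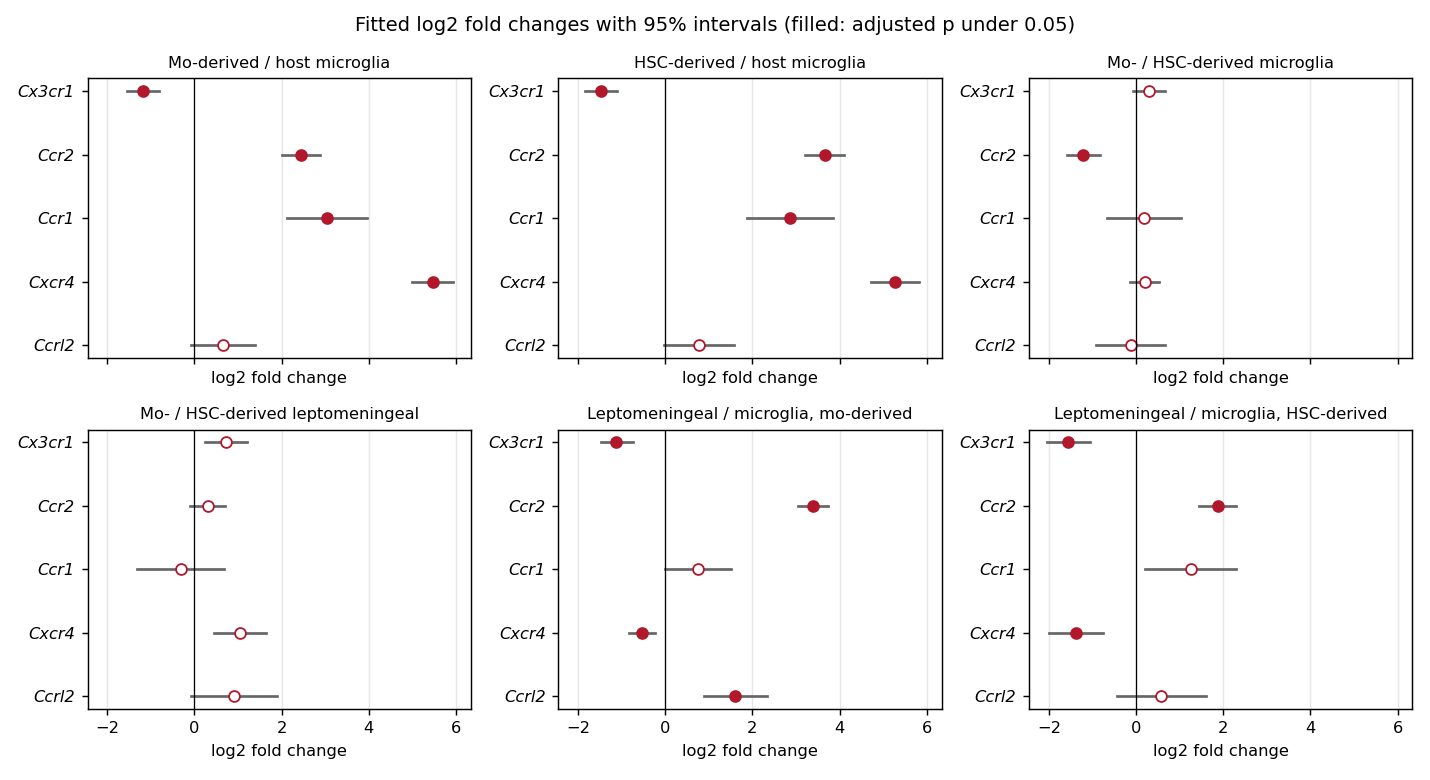
Fitted log2 fold changes of the 5 receptors with 95% intervals in 6 comparisons, the group named first over the second; filled points have an adjusted p under 0.05. Cxcr4 lies above 5 in both comparisons with host microglia, and Cx3cr1 is the only member below 0 there.

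Monocyte-derived leptomeningeal macrophages against host microglia gave the widest contrast, with 4 members higher, 1 lower and 46.6% of all genes called. HSC-derived leptomeningeal macrophages against host microglia also had 4 members higher and 1 lower, with 33.6% of all genes called. The Ccrl2 call there (1.36, edgeR adjusted p = 0.033) was lost without any 1 of 4 libraries, host microglia replicates 1 (1.32, adjusted p = 0.0609), 2 (1.28, adjusted p = 0.0683) and 4 (1.33, adjusted p = 0.0577) and leptomeningeal replicate 1 (-0.67, adjusted p = 0.617), and the Ccr1 call was lost without leptomeningeal replicate 1 (2.73, adjusted p = 0.0677). In monocyte-derived leptomeningeal macrophages against host microglia, Ccr2 was 57.0-fold higher (log2 fold change 5.83 ± 0.2, edgeR adjusted p = 1.01e-22). Cx3cr1 was 4.88-fold lower between the same 2 groups (-2.29 ± 0.186, adjusted p = 1.42e-12). Those groups differ in both origin and compartment, and host leptomeningeal macrophages were not analysed here, so the 2 cannot be told apart in this contrast.

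Of 23 further chemokine and chemoattractant receptors listed, 9 were in the table and 8 were tested. In monocyte-derived against host microglia, 4 were higher and 3 lower, where 30.2% of all genes were called. The median log2 fold change was 2.00 against 0.01 over all tested genes. In HSC-derived against host microglia the counts were again 4 and 3, where 29.4% of all genes were called. The median was 1.30 against 0.00. It was 2.19 with genes at 0 in 1 group put at their bound, without a gene of at most 3 counts in both groups. Cmklr1, the signalling chemerin receptor, fell to 109 ± 13.03 CPM in monocyte-derived microglia, against 226 ± 38.1 CPM in host microglia (-1.04 ± 0.166, adjusted p = 5.52e-06). C5ar1, the complement C5a receptor, fell to 7.66 ± 2.59 CPM, against 39.0 ± 6.79 CPM in host microglia (-2.33 ± 0.243, adjusted p = 1.41e-09). Both were also lower in HSC-derived than in host microglia by the same test, as Cx3cr1 was.

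The 4 that were higher stood at low levels. Cxcr3, a receptor of activated T and NK cells, was at 18.7 ± 5.14 CPM in monocyte-derived microglia and 3.22 ± 0.79 CPM in host microglia (2.50 ± 0.312, edgeR adjusted p = 6.35e-08), and Cxcr6, the Cxcl16 receptor, was at 9.12 ± 1.94 and 1.48 ± 0.469 CPM (2.62 ± 0.478, adjusted p = 4.87e-05). Ccr7, which guides dendritic cells to lymph nodes, had 12 counts in monocyte-derived microglia and none in host microglia, at least 5.65-fold higher with the floor of 3 counts taken over the group. Fpr2, a formyl peptide receptor, had 16 counts and 1. Of the T and NK cell markers, 12 of 14 were higher in monocyte-derived than in host microglia, against 15.1% of all genes. They moved with these receptors, and their part was not tested. In monocyte-derived leptomeningeal macrophages against monocyte-derived microglia, 6 of the 8 were higher and none lower, where 35.3% of all genes were called. The median was 2.23 against -0.04 over all genes. Among the 6 was C5ar1 at 45.9 ± 7.81 and 7.66 ± 2.59 CPM (2.56 ± 0.245, edgeR adjusted p = 3.56e-10). C5ar1, Fpr1 and Fpr2 are also receptors of neutrophils and monocytes. In this comparison neutrophil markers summed to 1310 to 2940 CPM in the leptomeningeal cells and 120.0 to 189 CPM in microglia, monocyte markers to 363 to 588 and 31.1 to 68.6 CPM, and T and NK cell markers to 555 to 991 and 153 to 194 CPM; their part in the receptor differences was not tested. In HSC-derived leptomeningeal macrophages against HSC-derived microglia 4 of 8 were higher and none lower (median 1.67 against -0.06), where 9.72% of all genes were called. Neither comparison between origins called any of the 8, where 1.89% of all genes were called in microglia and 0.302% in the leptomeninges. With shares this low, no call among 8 genes says little about them. The medians were 0.25 in microglia and 0.22 in the leptomeninges, against 0.02 and 0.07 over all genes. By edgeR's test 0 of the 8 had an unadjusted p under 0.05 in either.

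Of the 13 listed ligands of the 5 receptors, 12 were in the table and 11 were tested. Monocyte-derived against host microglia had 3 higher and 3 lower, and HSC-derived against host microglia had 4 higher and 1 lower, where 30.2% and 29.4% of all genes were called. The medians were 0.00 and 0.57, or -0.04 and 0.31 over the 10 ligands with more than 3 counts in either group. Ccl12, a ligand of Ccr2, was at 843 ± 130 CPM in monocyte-derived microglia, 801 ± 84.7 CPM in HSC-derived microglia and 262 ± 30.0 CPM in host microglia (log2 fold changes against the host 1.68 ± 0.181 and 1.61 ± 0.183, edgeR adjusted p = 2.64e-09 and 1.41e-08). Ccl7, also a ligand of Ccr2, was at 47.9 ± 10.8, 64.6 ± 9.68 and 3.64 ± 1.35 CPM in the same groups (3.59 ± 0.312 and 4.06 ± 0.34, adjusted p = 2.50e-10 and 1.70e-10). The Ccr1 ligand Ccl6 fell to 70.6 ± 10.2 CPM in monocyte-derived microglia and 98.9 ± 17.2 CPM in HSC-derived microglia, against 153 ± 27.3 CPM in host microglia (n = 4 each). Ccl3, another ligand of Ccr1, was at 500.3 ± 30.6, 517 ± 192 and 537 ± 56.8 CPM, with adjusted p of 0.715 and 0.958 against the host.

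Between compartments the ligands were higher in the leptomeninges, 8 of 11 for monocyte-derived and 6 of 11 for HSC-derived cells, with none lower (medians 2.05 and 1.57, against -0.04 and -0.06 over all genes), where 35.3% and 9.72% of all genes were called. The neutrophil, monocyte and T and NK cell markers given above were higher in the same monocyte-derived leptomeningeal libraries, and their part in the ligand differences was not tested. Ccl2, the main Ccr2 ligand, was at 997 ± 143 CPM in monocyte-derived leptomeningeal macrophages and 123 ± 10.9 CPM in monocyte-derived microglia (3.02 ± 0.366, edgeR adjusted p = 1.19e-05). Ccl7 was at 672 ± 108 and 47.9 ± 10.8 CPM (3.82 ± 0.219, adjusted p = 6.81e-14). The Cxcr4 ligand Cxcl12, which is made mainly by stromal and endothelial cells, had 56 counts in monocyte-derived leptomeningeal macrophages and none in monocyte-derived microglia, at least 19.5-fold higher with the floor of 3 counts taken over the group. Fractalkine itself, Cx3cl1, was listed with 2 to 16 counts per group and was not tested. Ccr2 and its ligands Ccl2, Ccl7 and Ccl12 were all higher in monocyte-derived leptomeningeal macrophages than in monocyte-derived microglia.

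**Figure D4:**
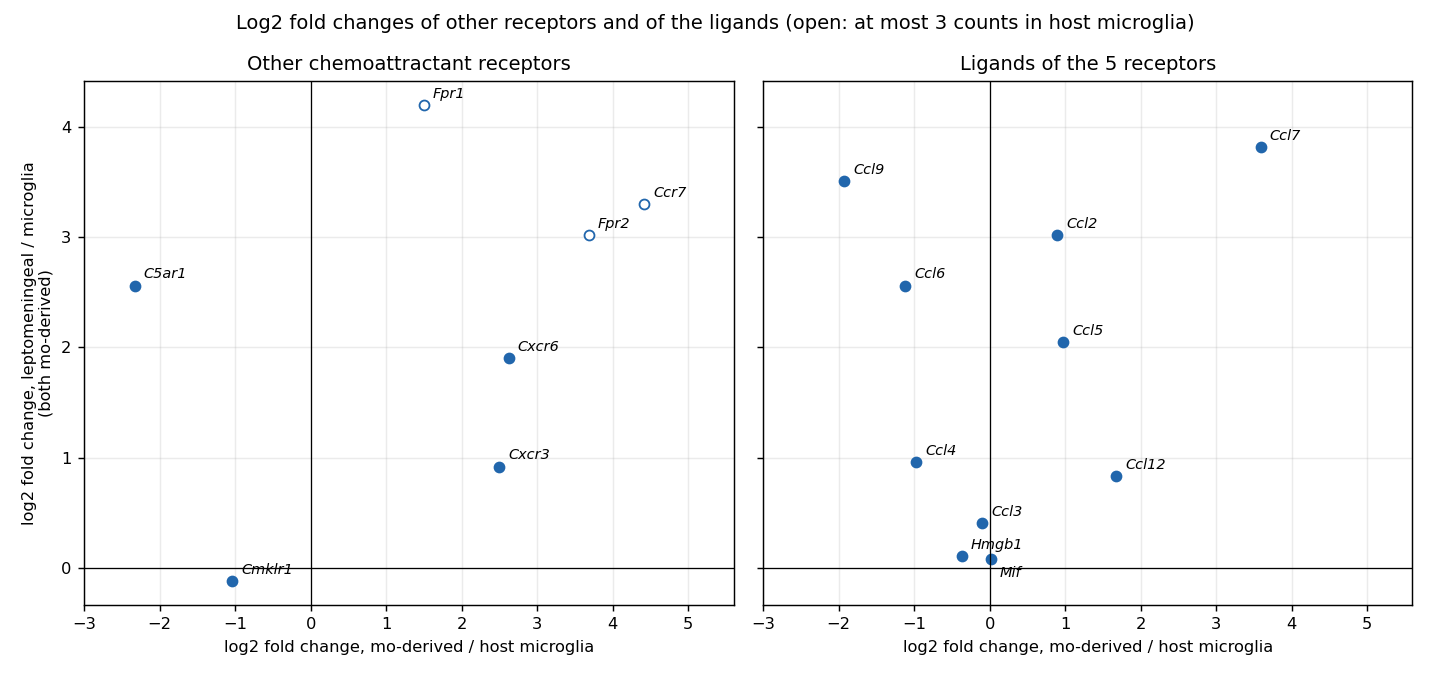
Log2 fold change in monocyte-derived over host microglia (x axis) against that in leptomeningeal over microglial monocyte-derived cells (y axis) for 7 of the 8 other receptors (left) and 10 ligands (right); Cxcl12, with no count in either microglia group, is left out, and open points have at most 3 counts in host microglia. Cmklr1 and C5ar1 lie left of 0, and no called gene lies below 0 on the y axis.

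In the lists of signalling genes, the share of genes called is to be read beside the 30.2% and 29.4% called over all genes in monocyte-derived and HSC-derived against host microglia. Downstream of the receptors, the G protein and arrestin list (9 tested) had 0 higher and 3 lower in monocyte-derived against host microglia and 1 higher and 1 lower in HSC-derived against host microglia (medians -0.02 and -0.16), shares near those over all genes. Gnai2, the main inhibitory G protein of leukocytes, was at 724 ± 40.2 CPM in monocyte-derived microglia and 1015 ± 47.9 CPM in host microglia (n = 4 each, -0.49 ± 0.146, edgeR adjusted p = 0.0101). Receptor kinases and RGS proteins, which end receptor signals (10 tested), had 4 higher and 2 lower in monocyte-derived microglia and 4 higher and 1 lower in HSC-derived microglia (medians 0.53 and 0.26). Rgs1 was at 569 ± 120 CPM in monocyte-derived and 225 ± 15.9 CPM in host microglia (1.34, adjusted p = 0.00771), Rgs10 at 719 ± 38.6 and 1304 ± 19.8 CPM (-0.86 ± 0.166, adjusted p = 0.000106), and Rgs18 had 183 counts and none, at least 86.1-fold higher. Of 20 migration effectors, 1 was higher and 9 were lower in each donor-derived microglia group against the host (medians -0.47 and -0.50). The one that was higher was Itgal, the alpha chain of LFA-1, at 23.9 ± 4.67 CPM in monocyte-derived microglia and 2.19 ± 0.667 CPM in host microglia (3.34 ± 0.35, adjusted p = 1.53e-09), while its partner Itgb2 was at 294 ± 13.6 and 619 ± 68.4 CPM (-1.07 ± 0.154, adjusted p = 9.44e-07). Leptomeningeal over microglial monocyte-derived cells gave 5 higher and 0 lower of 9 G proteins and arrestins, and 9 higher and 1 lower of 20 migration effectors (medians 0.53 and 0.32), where 19% of all genes were higher and 16.3% lower.

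**Figure D5:**
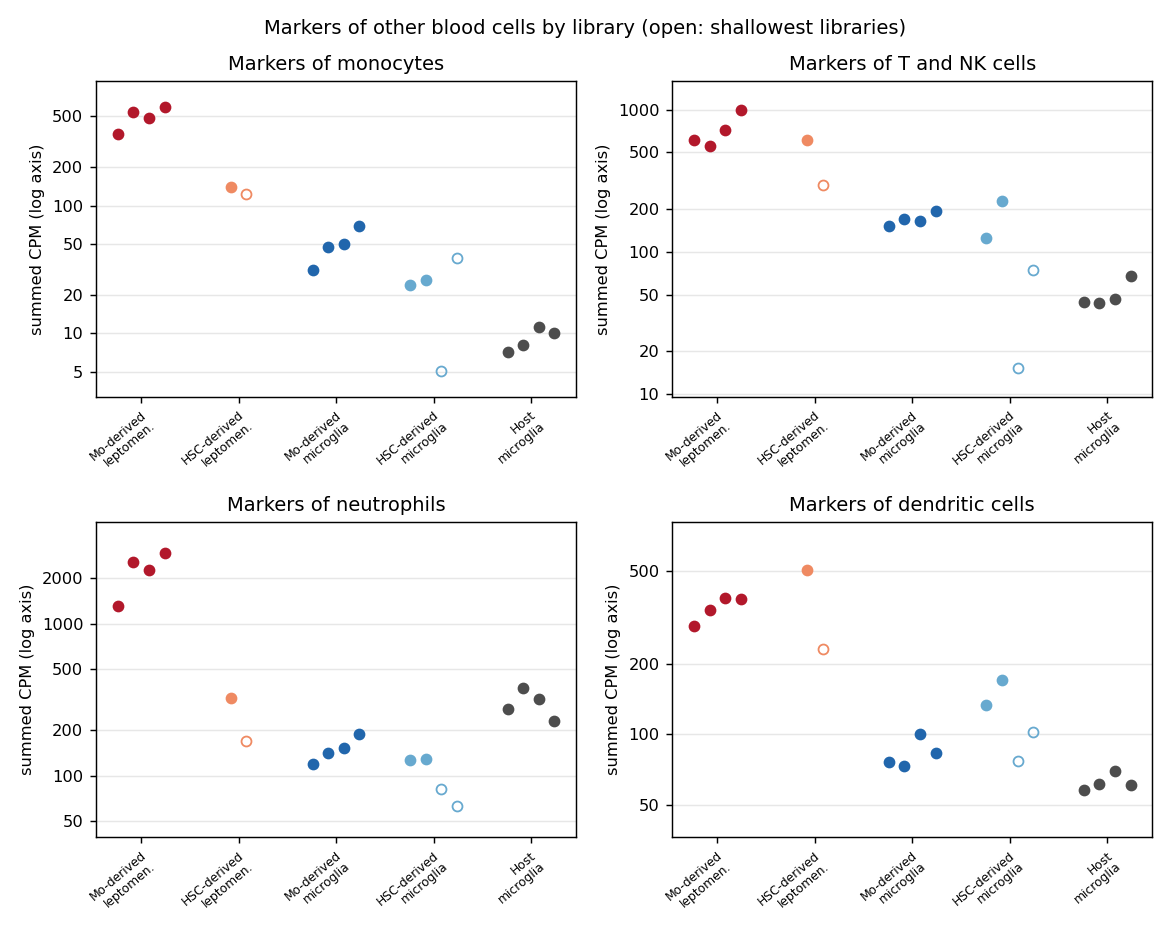
Summed CPM of the markers of monocytes, T and NK cells, neutrophils and dendritic cells in each library, on log axes, with the 3 shallowest libraries open. Neutrophil markers reach 1310 to 2940 CPM in monocyte-derived leptomeningeal macrophages, and T and NK cell markers 555 to 991 CPM there, above all microglia libraries.

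The genes whose pattern over the 18 libraries was most like each receptor were ranked by the root mean square difference of centred log2 CPM, among tested genes of at least 20 CPM on average. For Cx3cr1 these were Snn (0.21), P2ry13 (0.25), which encodes a purine receptor, and Lpcat2 (0.26), a lysophospholipid acyltransferase gene. Lpcat2 was at 138 ± 15.6, 87.4 ± 7.06, 377 ± 17.5, 285 ± 31.8 and 621 ± 54.7 CPM from monocyte-derived leptomeningeal macrophages to host microglia, in the same order of groups as above. For Ccr2 they were Ifitm2 (0.32), an interferon-inducible gene, Lgals3 (0.41), which encodes galectin-3, and Vim (0.43), which encodes vimentin; Ifitm2 and Lgals3 were again the nearest without the 3 shallowest libraries. Like Ccr2, Lgals3 was lower in monocyte-derived than in HSC-derived microglia, at 52.7 ± 13.3 and 117 ± 36.8 CPM (n = 4 each). For Ccr1 they were Dab2 (0.46), Ptpn22 (0.54) and Adam33 (0.56), and Dab2, an endocytic adaptor gene, was nearest also without the 3 shallowest libraries. For Cxcr4 they were Cmah (0.59), Gpr65 (0.61), a proton-sensing receptor gene, and Qpct (0.62); Gpr65 was at 316 ± 13.7 CPM in monocyte-derived microglia, 280 ± 53.8 CPM in HSC-derived microglia and 14.1 ± 2.93 CPM in host microglia. For Ccrl2 they were Ppp1r15a (0.40), Ier3 (0.42) and Nfkbid (0.43), all known as quickly induced stress or NF-kB response genes. None of these 3 remained among the nearest to Ccrl2 without the 3 shallowest libraries. These likenesses are descriptions over libraries that share group, depth and preparation.

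Counts of called neighbours are to be read beside 30.2% and 29.4% of all genes called in monocyte-derived and HSC-derived against host microglia. Within 500 kb of Ccr2 on chromosome 9, 8 other genes were tested. Cxcr6 and Ccr1, 295 kb and 133 kb away between gene starts, were higher in both donor-derived microglia groups than in host microglia. Fyco1 and Lztfl1, which encode no receptors, were not called in either comparison. Around Cxcr4 on chromosome 1, none of 4 tested neighbours was called in either comparison with the host. Around Cx3cr1 1 of 7 was called in each: Eif1b was lower in monocyte-derived microglia (-0.45) and Rpsa higher in HSC-derived microglia (1.40). Around Ccrl2 8 neighbours were tested, and Nbeal2 and Ccdc12 were lower in both donor-derived microglia groups than in host microglia, while Epm2aip1 was higher in the monocyte-derived cells (1.07).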

How the data were processed

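Bulk MARS-seq libraries of polyadenylated RNA from sorted brain macrophages were read as the UMI counts per gene that the authors deposited, which are whole numbers whose totals differ by library. Per the submitters' processing notes, the genome build was mm10. Which aligner and counter were used, and whether genes were filtered, is not given in the sources used here. Of 20 libraries in the table, 18 matched a described sample, and 2 matched none and were not used. Low genes were dropped with filterByExpr and libraries scaled by TMM in edgeR 4.0.16 (with limma 3.58.1, under R 4.3.3); all 18 libraries were fitted in 1 robust quasi-likelihood model with a coefficient per group (common biological coefficient of variation 0.161). Tests were two-sided, adjusted by Benjamini-Hochberg over all tested genes, with a threshold of 0.05, for 7 comparisons and 4 other group pairs needed for the order of levels. The steps were tested on simulated data. Log2 CPM used a prior count of 2. Levels are means ± SD of CPM, and errors of log2 fold changes are SE. Floors and intervals of counts cover counting error only.

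The members and gene lists were chosen with earlier results of these data known. Named genes were the members, tested genes of the other-receptor list, the most expressed tested genes of each other list, tested neighbours within 500 kb and the 3 genes nearest in pattern to each member; Ccl6, Ccl7, Cxcl12, Cx3cl1, Rgs18, Itgal and Itgb2 were named after their values were seen. Gene positions are those of the GENCODE annotation given for GRCm38.p6, and promoter windows those of RefSeq. Alternatives were library totals, DESeq2 size factors, DESeq2 1.42.0's Wald test, other filters, thinning, fits of the compared groups alone, a replicate block, and leaving out libraries. Some named results are not reported here.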

Additional observations from a re-analysis of the deposited data

Results flagged for a closer look

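In monocyte-derived microglia, Cx3cr1 replicate 4 stood apart from the other 3: the gap between its 1895 CPM and the next value was 0.898 of the group's range. For Ccr1 in the same group the highest library was again replicate 4, at 223 CPM, with a gap of 0.831 of the range. For Ccr2 in HSC-derived microglia the lowest library, replicate 4 at 86.1 CPM, lay apart from the others by 0.849 of the range, with 22 counts. Of 20 sets of 4 libraries examined in this way, 1 for each receptor and group, 3 stood out, where chance gives about 1 in 20. The compartment difference of Ccr2 differed between origins by 1.51 on the log2 scale (edgeR adjusted p = 0.0163).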

How the results depend on the processing

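For the 5 receptors in the 7 comparisons, 928 of 944 alternative values kept their direction where called and their side of the threshold; 8 lost a call, 8 gained one and none reversed. Calls were lost for the Ccr2 interaction with library totals only (1.29), the compared groups only (1.52) and thinned counts (1.68), and without any 1 of 3 libraries (leave-one-out 1.22 to 2.13). Cxcr4 in HSC-derived leptomeningeal macrophages over HSC-derived microglia lost its call with the compared groups only (-1.48) and thinned (-0.86). Calls were gained for Ccrl2 in monocyte-derived over host microglia with the compared groups only (0.68) and without the shallowest libraries (0.67), and for Ccrl2 in HSC-derived over host microglia without them (1.23) and without HSC-derived microglia replicate 4 alone (1.00, the top of a leave-one-out range from 0.54). Ccr1 gained one in monocyte-derived leptomeningeal macrophages over microglia with the compared groups only (0.76) and without the shallowest libraries (0.75), and in HSC-derived ones without them (1.23) and without HSC-derived microglia replicate 2 alone (1.74, the top of a leave-one-out range from -0.13). Leaving out the shallowest libraries left 1 HSC-derived leptomeningeal library. Ccrl2 in HSC-derived leptomeningeal macrophages over host microglia was called at 1.36 but was -0.67 without leptomeningeal replicate 1, the lowest of a range up to 1.85, and was not called under the replicate block (1.27, adjusted p = 0.104). The cause was not tested.

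Counts of genes called over the whole table changed more. In monocyte-derived over host microglia 3201 became 727 with thinned counts. In HSC-derived over host microglia 3114 became 2068 with the compared groups only and 1067 thinned. Between the donor-derived microglia groups 200 became 124 with library totals, 552 with DESeq2, 20 with the compared groups only and 50 without the shallowest libraries (leave-one-out 31 to 555). Between the leptomeningeal groups 32 became 70 with DESeq2, 16 with the compared groups only, 20 thinned and 72 without the shallowest libraries (leave-one-out 12 to 90). Leptomeningeal over microglia gave 3736 and 1062 thinned for monocyte-derived cells, and 1030, 205 with the compared groups only and 473 thinned for HSC-derived cells (leave-one-out 366 to 1242). The interaction gave 6, 1 with library totals, 49 with DESeq2, 1 with the compared groups only and 2 thinned (leave-one-out 0 to 40).

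Among groups of 4, deviations of same-numbered libraries from their group means correlated between -0.0772 and 0.0575. HSC-derived leptomeningeal macrophages, with 2 libraries, and HSC-derived microglia gave 0.323 for replicate 1 and -0.321 for replicate 2. These values cannot tell whether same-numbered libraries came from the same mice. With the replicate block 2998 genes were called in monocyte-derived over host microglia, and Ccr2 was at 2.45 there; it changed no call of a receptor in the 7 comparisons. In the HSC-derived groups the shallowest libraries held only 1 to 21 counts of Ccr1, Ccrl2 and Cxcr4. In HSC-derived microglia replicates 3 and 4, Ccr1 (51.2 and 54.8 CPM) and Ccrl2 (71.7 and 54.8 CPM) lay below replicates 1 and 2. Cxcr4 (82.0 and 82.2 CPM) lay between them. The cause was not tested.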
